A study of Mus musculus with 30 samples.

Results

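Cultured extraocular muscle of the mouse, the striated muscle that moves the eye, was compared at 12 h and at 0 h of a culture time course. The comparison rests on the arrays titled 12 hour EOM and 0 hour EOM, 3 per time on each of 2 Affymetrix array types, A and B, which makes 12 of the 30 arrays of the series. The other 18 arrays, at 4, 24 and 48 h, entered the fit to estimate the spread between arrays and to place the 12 h level among the other times. They also counted in the mean intensities that decided which probe sets were tested and that gave the percentiles of markers. The question was which genes stood at another level 12 h into the time course. All groups were total RNA of Mus musculus, and no strain, age, genotype or treatment was given in the sources used here. The labels leave unsaid what started the clock and whether the arrays of a group came from different cultures. They also do not say if an A and a B array that share a number were hybridised with 1 RNA sample. The spread that the p-values rest on is that between these arrays, and it may be technical. The B array at 0 h numbered 1 was titled extraocular muscle but named leg muscle as its source; it was kept under its title, and the B results are also given without it.

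When myoblasts leave the cell cycle and fuse into myotubes, they assemble sarcomeres, in which actin thin filaments anchored at the Z-disc slide past myosin thick filaments, and they switch on muscle forms of metabolic enzymes and of the proteins that couple excitation to contraction. MyoD-family factors and MEF2 drive much of that programme, and signals such as NF-kB and the Id proteins are known to hold it back. Cultured cells also respond to their medium: the aryl hydrocarbon receptor, NRF2 and immediate early genes react to ligands, oxidants and serum.

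Few genes passed the test at 12 h against 0 h. In the lists of the Z-disc, the myosin heavy chains and muscle energy metabolism 7 genes rose, as did the fast troponin subunits Tnnc2 and, in 1 of 2 probe sets, Tnni2, with changes from 0.91 for Tnni2 to 1.45 for Myoz2 on the log2 scale (3 arrays per time). The LIM-domain proteins Lmcd1, Fhl1 and Csrp1, the actin-binding proteins Pdlim2, Cnn2 and Mylk and, on the B arrays, the secreted protein Igfbp3 rose too. Cyp1a1, a target of the aryl hydrocarbon receptor, Nfkb2 and Nfkbia of the NF-kB pathway, Gclm of glutathione synthesis, the lymphatic growth factor Vegfc, the neurofilament subunit Nefm and Pdk4, which inhibits pyruvate dehydrogenase, fell, with changes between -1.61 for Nefm and -0.57 for 1 Nfkbia probe set. Intensities are linear values per probe set as deposited; changes are on the scale of log2(intensity + 16), given ± SE, and a probe set was called where limma's p-value, adjusted by Benjamini and Hochberg over all probe sets of its array type, lay below 0.05.

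Of 13577 A array probe sets tested, 50 were called (0.368%), 34 higher (0.25%) and 16 lower (0.118%). Of 13507 on the B arrays, 10 were called (0.074%), 8 higher (0.0592%) and 2 lower (0.0148%). At an unadjusted p below 0.05 there were 1736 and 1097. The counts depended on the fit: with only the arrays of 0 and 12 h in it, limma called 0 A array probe sets (1377 at an unadjusted p below 0.05) and 1 on the B arrays. Without an intensity trend in the prior variance 5 and 1 were called, and without the filter on low values 6 and 4. The median log2 change over all probe sets tested was 0.001 for the A arrays and -0.001 for the B arrays. With 1 probe set per gene, 40 of 12542 genes were called (0.319%), 28 higher (0.223%) and 12 lower (0.0957%). In all 60 called probe sets the 3 values at 12 h lay wholly above or wholly below the 3 at 0 h, as did those of 15.3% of A (7.27% above, 8.01% below) and 12.8% of B array probe sets tested (6.49% above, 6.32% below). The counts also depended on single arrays. Of the 50 A array calls 1 and 4 were kept without 0 h arrays 1 and 2, and 35 without 0 h array 3. Without 12 h arrays 1 and 2 the calls kept were 4 and 2, and without 12 h array 3 all 50. No called change took the other sign in the alternatives run. Leaving out an array could not reverse a sign, because the values of the 2 times did not overlap, so this is no sign of stability. On the A arrays 276 passed without the 12 h array numbered 3, 1 and 6 without 0 h arrays 1 and 2, 4 without 12 h array 1 and 4 without 12 h array 2. Removal of arrays of other times lowered the A count to 28 (4 h, array 1), 24 and 33 (24 h, arrays 1 and 2), and 20 and 31 (48 h, arrays 1 and 2). Other removals raised it, to 69 (4 h, array 2), 75 (24 h, array 3) and 67 (0 h, array 3). The B count became 34 without 12 h array 3, 19 without 0 h array 3, 2 without 0 h array 1, whose source name is leg muscle, 1 without 0 h array 2, 2 and 1 without 12 h arrays 1 and 2, 5 without 4 h array 1, 6 without 24 h array 3 and 4 without 48 h array 1. With the arrays scaled to a common median, 4 A array probe sets passed, of which 25% were higher, against 68% in the unscaled values.

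**Figure D1:**
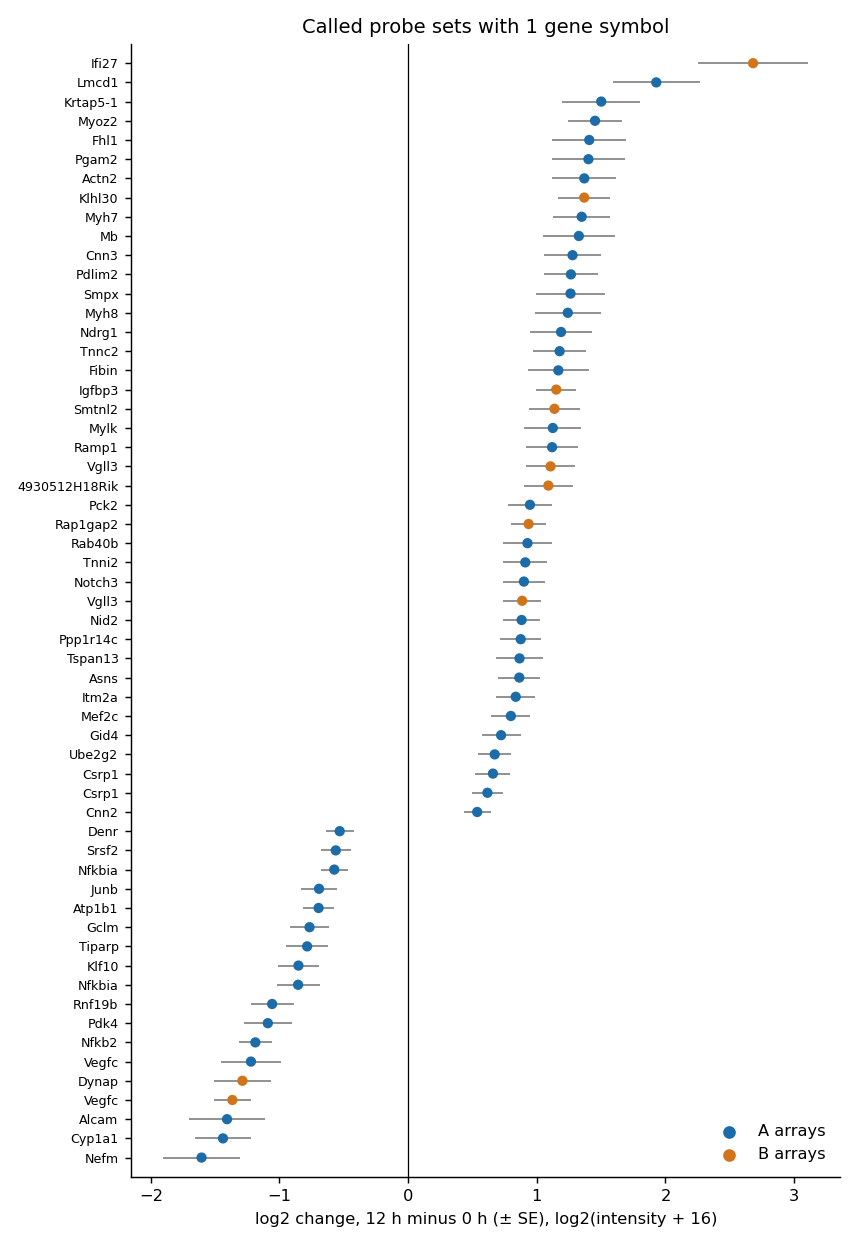
Called probe sets with 1 gene symbol. The horizontal axis is the log2 change at 12 h minus 0 h on the log2(intensity + 16) scale, points are fitted changes and bars ± SE, with A arrays in blue and B arrays in orange; the changes run from -1.61 for Nefm to 2.68 for Ifi27.

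The tissue named by the labels was checked against marker genes. Myog and Myod1, transcription factors of muscle commitment, stood at percentiles 99.3 and 98.3 of A array probe sets by mean intensity. Embryonic myosin heavy chain Myh3 and skeletal actin Acta1 stood at 98.5 and 99.7. All 11 skeletal muscle markers had a probe set above the low-intensity filter. Of the markers of head muscle, Tbx1, Msc and Myh6 lay below the filter, and Isl1 and Tcf21 passed it; these genes did not tell extraocular from other muscle. Of 15 limb and trunk markers 6 were tested and none was called. Of the 8 endothelial markers 2 passed the filter, and of the 4 adipocyte markers on the arrays none did. Of 6 satellite cell markers 5 passed, among them Pax7 (-0.03, adjusted p = 0.961, on the A arrays), and none was called by limma. A B array probe set of Pax7 measured 2485, 2331 and 2189 at 0 h and 2607, 2967 and 4031 at 12 h, without overlap, and was not called either (0.43 ± 0.28, adjusted p = 0.752). Of 4 Schwann cell markers on the arrays 3 passed, of 5 cartilage and bone markers 2, and none was called. The 8 leukocyte markers on the arrays, of which 3 passed, summed to 814 to 1054 at 0 h and 733 to 1293 at 12 h on the A arrays. Mean correlations of each array with its own group ran across probe sets from 0.962 to 0.973 for A arrays and from 0.852 to 0.891 for B arrays, and the 3' to 5' signal ratio of Gapdh from 0.762 to 0.86 and from 0.787 to 0.845. In total RNA of a culture, fewer cells of a type and less RNA per cell cannot be told apart.

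The Z-disc anchors thin filaments of neighbouring sarcomeres. Of its 22 genes tested, 3 were called higher and none lower, 20 had a higher mean at 12 h, and the median log2 change was 0.56, beside 0.02 over all genes. Myoz2 encodes calsarcin-1, which binds alpha-actinin and calcineurin at the Z-disc. Its intensities were 336, 454 and 497 at 0 h and 1249.8, 1375 and 972 at 12 h. All 12 h arrays exceeded all 0 h arrays, and the array numbered 3 was the highest of its time at 0 h and the lowest at 12 h. The log2 change was 1.45 ± 0.21 (limma adjusted p = 0.0141), 2.74-fold on that scale. Actn2 encodes alpha-actinin-2, the crosslinker of thin filaments. It measured 702, 864 and 1214 at 0 h and 2712, 2957 and 1635 at 12 h, again with no overlap and with array 3 nearest to the other time in both groups (1.37 ± 0.25, adjusted p = 0.0285). Smpx, a small protein of costameres in striated muscle, went from 636, 681 and 1354 to 2457, 1916 and 1780.2 (1.26 ± 0.26, adjusted p = 0.0498); here too array 3 was the highest at 0 h and the lowest at 12 h. The next member by test statistic was Csrp3, the muscle LIM protein, which did not pass (0.75 ± 0.16, adjusted p = 0.0581).

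Myosin heavy chains are the motors of the thick filament, and muscles express them in developmental and fibre-type series. Of 6 tested, 2 were called higher, all 6 had a higher mean, and the median change was 0.66. Myh7, the slow and cardiac beta form, stood at 214, 179.9 and 258 at 0 h and 508, 734 and 502 at 12 h. The groups were well separated, with a change of 1.35 ± 0.22 (adjusted p = 0.025). Myh8, the perinatal form, stood at 281, 375 and 509 and then 1364, 856 and 653; at 12 h its values spread widely, and array 3 was again the lowest (1.24 ± 0.26, adjusted p = 0.0498). Myh3, the embryonic form, had means of 4996 ± 59.0 (SD, n = 3) and 7933 ± 1702 and a change of 0.64 ± 0.18 (adjusted p = 0.131). The adult fast form Myh1 had a change of 0.67 ± 0.31 (adjusted p = 0.37), and its 2 groups overlapped. None of 4 myosin light chain genes tested was called, all 4 had a higher mean (median 0.57), and Myl1 came nearest (0.59 ± 0.15, adjusted p = 0.0891).

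In the thin filament list, which holds actins, troponins, tropomyosins and filament caps, 1 of 17 genes tested was called higher and 14 had a higher mean, with a median of 0.33. Tnnc2, the calcium-binding troponin subunit of fast fibres, measured 2189, 2140.2 and 3476 at 0 h and 6198, 6402 and 4799 at 12 h. The lowest 12 h array stood above the highest 0 h array, and both of these were numbered 3 (1.18 ± 0.21, adjusted p = 0.0285). Tnni2, the inhibitory subunit of fast fibres, was called in 1 of its 2 tested probe sets, 565, 515 and 627 against 1257, 1178 and 851 (0.91 ± 0.17, adjusted p = 0.034). The brighter probe set of Tnni2, which stands for the gene in the list, had a change of 0.92 (adjusted p = 0.0924). Of 13 titin, M-band and myosin-binding genes none was called, 12 had a higher mean and the median was 0.21; Mybph, a myosin-binding protein, came nearest (0.88 ± 0.19, adjusted p = 0.0523).

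**Figure D2:**
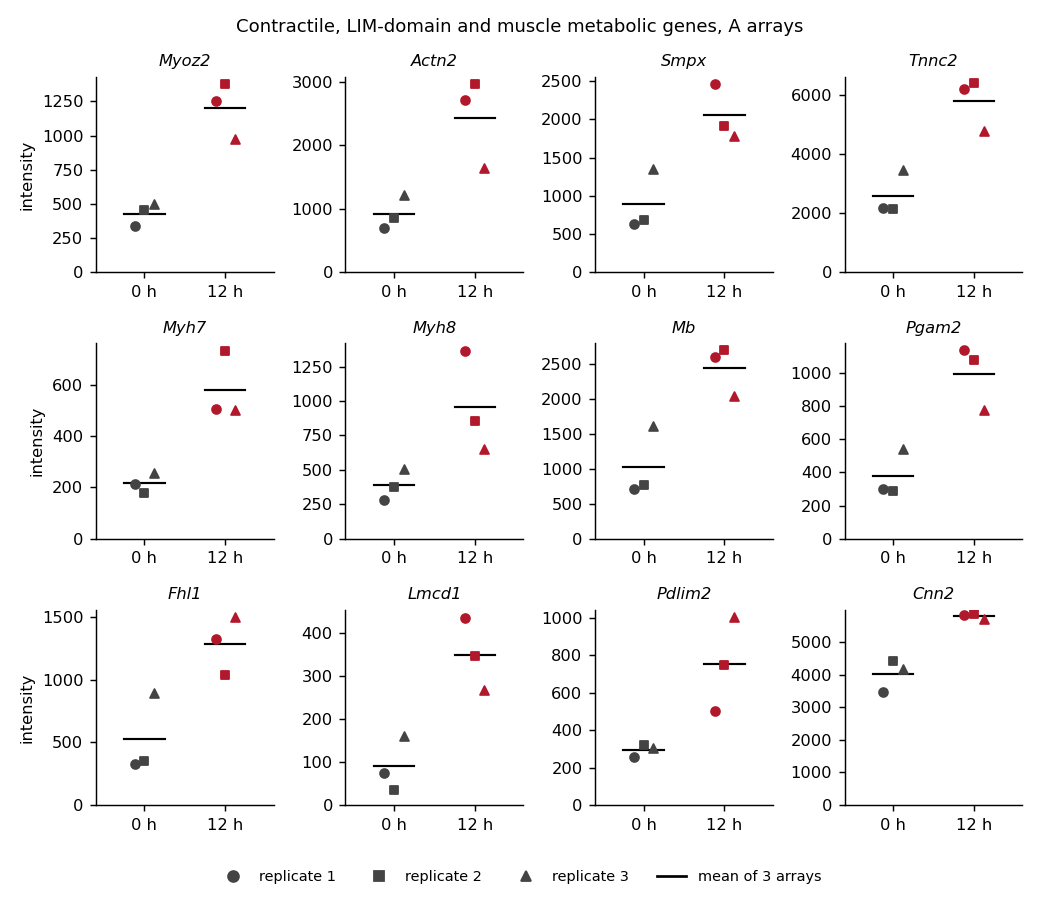
Intensities of 12 called probe sets of contractile, LIM-domain, actin-binding and metabolic genes on the A arrays, on linear axes from 0. Each point is 1 array, the symbol gives the replicate number, grey is 0 h, red is 12 h and the bar is the mean of 3 arrays. In every panel the 12 h points lie above the 0 h points. In all panels but Fhl1, Pdlim2 and Cnn2 the triangles of replicate 3 lie closest to the other time in both groups.

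Excitation-contraction coupling carries the action potential to calcium release from the sarcoplasmic reticulum. None of its 19 genes tested was called, 17 had a higher mean, and the median was 0.51. Casq2, a calcium-storing calsequestrin, had intensities of 1804, 2109 and 2829 at 0 h and 5955, 4844 and 3269.6 at 12 h, a change of 1.04 ± 0.23 (adjusted p = 0.0556). Cacna1s, the voltage sensor of the transverse tubule, had 201, 174 and 252 and 482, 569 and 338 (1.08 ± 0.23, adjusted p = 0.0556). Both lay just outside the threshold although no 0 h array reached a 12 h array. Sln, sarcolipin, an inhibitor of the calcium pump, had 139, 131 and 490.2 and 626, 750.0 and 1190.1, with array 3 the highest at both times (1.89 ± 0.42, adjusted p = 0.0592).

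Among 17 muscle isoforms of energy metabolism, 2 were called higher, none lower, and the median was 0.51. Pgam2, the muscle phosphoglycerate mutase of glycolysis, stood at 301, 289 and 544 at 0 h and 1136, 1079 and 774 at 12 h, with array 3 the highest at 0 h and the lowest at 12 h (1.40 ± 0.28, adjusted p = 0.0458). Mb, the oxygen carrier myoglobin, stood at 706, 764 and 1618 and 2599, 2693 and 2034, in the same order (1.33 ± 0.28, adjusted p = 0.0498). Cd36, a fatty acid transporter, and Cox6a2, the muscle form of a cytochrome oxidase subunit, had changes of 1.33 ± 0.30 and 1.01 ± 0.23 (adjusted p = 0.0582 and 0.067). The subunits of oxidative phosphorylation that all cells use were listed apart: of 29 tested none was called, 20 had a higher mean, and the median change was 0.06. Ndufv1 had the largest statistic among them (0.38 ± 0.14, adjusted p = 0.238).

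The factors that drive muscle differentiation were not called when each gene was represented by 1 probe set, the one of highest mean on the A arrays or, where none was tested there, on the B arrays: 0 of 18 passed, 1 had an unadjusted p below 0.05, and the median was 0.11. Mef2c, a MADS-box factor of muscle genes, was called in 1 of its 5 tested probe sets, which went from 1292, 1441 and 1505 to 2655, 2628 and 2144 (0.80 ± 0.15, adjusted p = 0.034). Its other 4 probe sets had changes between 0.55 and 0.88. Myog had means of 10695 ± 3219 and 11825 ± 1140.3 (0.19 ± 0.24, adjusted p = 0.788). For the acetylcholine receptor and neuromuscular junction 0 of 14 genes were called (median 0.12), with Cav3 nearest (0.81 ± 0.29, adjusted p = 0.238).

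The promoters of 3 of these genes are shown because each holds a match to the binding site of MEF2, given in capitals, in the 250 bases before the start of transcription. They come from RefSeq on build GRCm38.p6 and read 5' to 3' on the gene's strand. The Myoz2 window is chr3:123034988-123035237, minus strand, that of Pgam2 chr11:5803797-5804046, minus strand and that of Myh8 chr11:67276874-67277123, plus strand, and the matches begin 33, 80 and 99 bases before the start.
Myoz2: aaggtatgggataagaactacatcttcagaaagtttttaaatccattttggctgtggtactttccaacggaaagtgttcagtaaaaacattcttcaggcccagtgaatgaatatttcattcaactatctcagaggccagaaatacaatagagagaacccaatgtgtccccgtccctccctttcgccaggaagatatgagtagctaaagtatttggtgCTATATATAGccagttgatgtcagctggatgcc
Pgam2: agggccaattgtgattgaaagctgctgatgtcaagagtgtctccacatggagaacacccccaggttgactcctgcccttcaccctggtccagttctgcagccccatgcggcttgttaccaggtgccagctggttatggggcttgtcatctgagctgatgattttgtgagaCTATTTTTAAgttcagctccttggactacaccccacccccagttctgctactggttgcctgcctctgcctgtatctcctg
Myh8: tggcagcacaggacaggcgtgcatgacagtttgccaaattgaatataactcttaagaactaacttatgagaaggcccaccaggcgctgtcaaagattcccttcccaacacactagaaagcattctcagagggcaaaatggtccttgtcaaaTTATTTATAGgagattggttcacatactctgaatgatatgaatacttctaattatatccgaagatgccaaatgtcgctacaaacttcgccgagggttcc
Of 38 genes called higher, 31 were found in the promoter table, with 43 promoters. A MEF2 site on either strand was in 6.98% of these, which are the 3 printed, and in 2.92% of all 32851 promoters. Of 15 promoters of genes called lower 0 held it. No match was in the promoters of Myh7, Actn2, Tnnc2, Mb, Smpx, Lmcd1 or Mef2c. The E-box CAGCTG, the core that MyoD-family factors bind, was in 18.6% of promoters of genes called higher and in 13% of all. A match of letters is a description of the window and not evidence of binding.

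The size of the muscle changes differed between the 12 h arrays. The mean log2(intensity + 16) over 85 muscle genes on the A arrays, from the lists of myosins, filaments, Z-disc, M-band, excitation-contraction coupling and energy metabolism, was 9.90, 9.98 and 9.92 at 0 h and 10.64, 10.70 and 10.14 at 12 h. The 12 h array numbered 3 lay closer to the 0 h arrays than to its own group. On the B arrays, with 34 such genes, the means were 10.74, 11.02 and 10.70 at 0 h and 11.33, 11.27 and 10.73 at 12 h, so B array 3 at 12 h lay inside the 0 h range. Without the 12 h arrays numbered 3, an alternative chosen after seeing the data, the medians rose to 0.83 for the Z-disc with 6 called, 0.97 for myosin heavy chains with 3, 0.56 for the thin filament with 4, 0.86 for titin and M-band with 3, 0.59 for excitation-contraction coupling with 5 and 0.71 for muscle energy metabolism with 7. Without the 0 h arrays numbered 3 the medians were 0.37, 0.56, 0.15, 0.32, 0.27 and 0.64 in the same order, with 5, 2, 1, 1, 3 and 4 genes called higher. With the arrays scaled to a common median the medians were 0.50, 0.60, 0.27, 0.25, 0.45 and 0.46, and 1 gene was called in the Z-disc list and none in the other 5. At 24 h the A arrays stood at 10.82, 10.83 and 10.43, again with array 3 the lowest. The Gapdh 3' to 5' ratios at 12 h were, in array order, 0.762, 0.86 and 0.779 (A arrays) and 0.832, 0.81 and 0.845 (B arrays). Their part in the muscle level of array 3 was not tested.

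**Figure D3:**
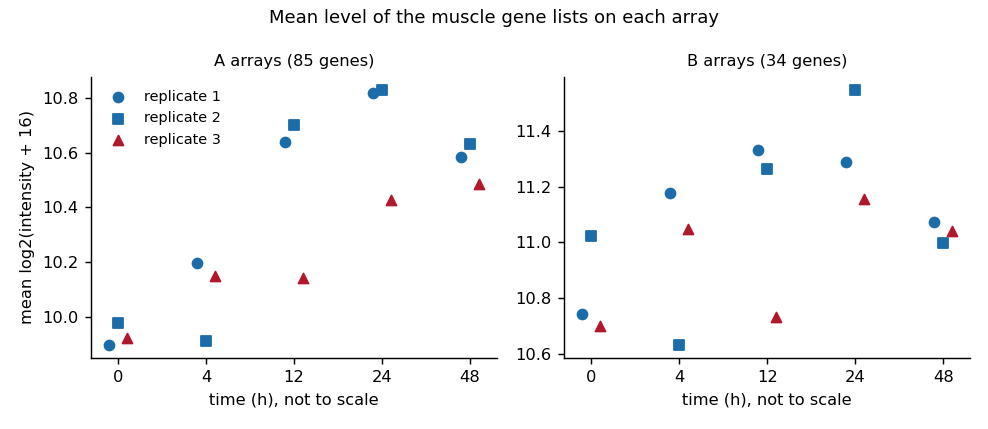
Mean log2(intensity + 16) of the muscle gene lists on each array, against time in h (not to scale), 85 genes on the A arrays (left) and 34 on the B arrays (right). Each point is 1 array and red triangles are replicate 3; at 12 h replicate 3 stands at 10.14 (A arrays) and 10.73 (B arrays), below the other 2 arrays of its time on both types.

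LIM-domain and ankyrin repeat proteins of muscle, many of which dock on the cytoskeleton, were listed together: 3 of 13 genes tested were called higher, each a LIM-domain protein, 11 had a higher mean, and the median was 0.36. Lmcd1, a LIM and cysteine-rich protein that acts with calcineurin in muscle growth, had the largest rise among the called A array probe sets. It measured 75.5, 35.7 and 160.3 at 0 h and 434, 345 and 267 at 12 h (1.93 ± 0.34, adjusted p = 0.0285), from a dim level at which the added 16 understates the change. Fhl1, a LIM-only protein of the sarcomere, measured 327, 353 and 893 and 1323, 1041 and 1502 (1.41 ± 0.29, adjusted p = 0.0459); its highest 12 h value was on array 3. On the B arrays the single Fhl1 probe set had a change of 0.16 (adjusted p = 0.96). Csrp1, a cysteine-rich LIM protein of actin bundles, was called in both of its probe sets, with changes of 0.66 and 0.62 (adjusted p = 0.0486 and 0.0417).

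Actin-binding proteins of smooth and non-muscle cells were listed after the called probe sets had been seen, so their counts describe and support nothing: 6 of 25 tested were called higher, none lower, and the median was 0.26. Pdlim2, a PDZ-LIM protein of actin fibres that also marks the NF-kB subunit RelA for degradation, measured 258, 320.4 and 302 at 0 h and 504, 749.8 and 1005 at 12 h. At 12 h its highest value was on array 3, which held the lowest value of Actn2 and Mb (1.26 ± 0.21, adjusted p = 0.025). Cnn2, a calponin that binds actin in migrating cells, had the smallest called rise, 3470.1, 4403 and 4165 against 5812, 5867 and 5717 (0.54 ± 0.10, adjusted p = 0.0378). Mylk, the kinase that activates smooth muscle myosin, had 122, 68.5 and 83.7 and 185, 278 and 187 (1.12 ± 0.22, adjusted p = 0.0417), and its 2 other probe sets were below the filter. Ppp1r14c, an inhibitor of a protein phosphatase, went from 376, 354 and 411 to 801, 757 and 588 (0.87 ± 0.16, adjusted p = 0.0285). Smtnl2, a smoothelin-like protein, was called in 1 of 2 B array probe sets, 792, 947 and 1169 against 2231, 2348 and 1832 (1.14 ± 0.20, adjusted p = 0.0475), and the other had a change of 0.25.

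Cnn3, acidic calponin, shows why probe sets were kept apart. The called probe set measured 518, 688 and 663 at 0 h and 1642, 1302 and 1646 at 12 h (1.28 ± 0.23, adjusted p = 0.0285). The other 5 probe sets of Cnn3 had changes from -0.20 to 0.33 and none was called. Beside these genes stood the markers of smooth muscle cells and pericytes: 6 of 8 were tested and none was called, 5 of the 6 had a higher mean at 12 h, and the median change was 0.45. Without 12 h array 3 the list held 1 called rise and without 0 h array 3 it held 2. Pdgfrb, a receptor of pericytes, measured 467, 296 and 480.2 at 0 h and 750.4, 646 and 711 at 12 h, with no overlap (0.77 ± 0.18, adjusted p = 0.0636). Smoothelin, Smtn, had means of 543 ± 68.1 and 867 ± 218 (SD, n = 3) and overlapping groups (0.63 ± 0.17, adjusted p = 0.111). Myh11 and Cnn1, which define smooth muscle, were below the filter with 12 h means of 22.8 or less. The summed intensity of the list was 12813 to 19529 at 0 h and 15392 to 19854 at 12 h on the A arrays, most of it from Acta2, and on the B arrays, with Acta2 alone, 510.3, 77.0 and 112.9 and then 578.5, 549.3 and 206.3. The part of these cells in the rises of actin-binding genes was not tested. Acta2, which myoblasts also express, had means of 14160.2 ± 4064 and 13784 ± 1905. The promoter of Cnn2 (chr10:79988350-79988599, plus strand, RefSeq, GRCm38.p6) is shown for its CArG box, the site of serum response factor, in capitals 56 bases before the start.
Cnn2: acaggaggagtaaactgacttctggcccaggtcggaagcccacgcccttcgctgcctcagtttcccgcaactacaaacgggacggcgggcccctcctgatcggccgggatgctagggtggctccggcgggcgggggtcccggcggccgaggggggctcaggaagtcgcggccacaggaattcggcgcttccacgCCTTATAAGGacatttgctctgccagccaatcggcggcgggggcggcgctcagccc
CArG boxes were in 9.3% of the 43 promoters of genes called higher, in 6.67% of 15 promoters of genes called lower and in 1.47% of all promoters. Among genes called higher, the matches were in promoters of Cnn2, Fhl1, Lmcd1 and Rap1gap2, and those of Csrp1, Mylk and Cnn3 held none.

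Igfbp3, which binds insulin-like growth factors outside the cell, measured 1045, 1273 and 1508 at 0 h and 2593, 2737 and 3160.3 at 12 h on the B arrays (1.15 ± 0.15, adjusted p = 0.0107). The A array probe set had a change of 1.16 and did not pass (adjusted p = 0.09). Represented by that probe set, 0 of 12 genes of the growth factor's system were called, 11 had a higher mean and the median was 0.30. Vgll3, a cofactor of TEAD transcription factors, was called in 2 of 3 B array probe sets. The brighter of these went from 2576, 2368 and 3002 to 5122, 4797 and 4743 (0.89 ± 0.15, adjusted p = 0.0475) and the other called one changed by 1.11; the probe set that did not pass (adjusted p = 0.115) had 0.89. None of the 9 genes of TEADs and their cofactors tested was called by its brightest probe set, in a list made after the calls were seen. Rap1gap2, a GTPase-activating protein for Rap1, stood at 2148, 2076 and 2013 and 4439.7, 4099 and 3495 (0.94 ± 0.13, adjusted p = 0.0153). Klhl30, a kelch-like protein, stood at 956, 834 and 1289.6 and 2885, 2881 and 2194 (1.37 ± 0.20, adjusted p = 0.0156).

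Ifi27, an interferon-induced gene, had the largest change of all called probe sets. It measured 179, 334 and 391 at 0 h and 2708, 2178 and 1213 at 12 h on the B arrays (2.68 ± 0.43, adjusted p = 0.0354). A brighter Ifi27 probe set had a change of 0.44 and overlapping groups (adjusted p = 0.494). Of 12 interferon-induced genes tested none was called and the median was 0.05. Without the B array whose source name is leg muscle, the Ifi27 change was 2.36 (adjusted p = 0.131). Changes without that array were 1.02 for Igfbp3, 0.96 for Rap1gap2, 1.33 for Klhl30, 1.00 for Smtnl2, 0.98 for 4930512H18Rik and 1.00 and 0.87 for the Vgll3 probe sets, none of which then passed (adjusted p from 0.064 to 0.171).

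Notch3, a receptor of the Notch pathway, was called in its brighter probe set, with 306, 323 and 251 at 0 h and 583, 574 and 519 at 12 h (0.90 ± 0.16, adjusted p = 0.0294), the single call among 15 pathway genes (median 0.18). Nid2, a nidogen of basement membranes, stood at 997, 1015 and 1274 and 1941, 2062 and 2056 (0.88 ± 0.14, adjusted p = 0.0239). It was the only one of 34 matrix genes called, and the matrix list had a median of 0.16. The matricellular gene Smoc2 lay next to the threshold in the other direction (-2.08 ± 0.47, adjusted p = 0.0592). Asns, asparagine synthetase, and Pck2, the mitochondrial form of phosphoenolpyruvate carboxykinase, both known targets of ATF4, rose by 0.86 and 0.95. The brighter Asns probe set had 0.42 (adjusted p = 0.377), and of 29 genes in the list of the ATF4 and unfolded protein responses, which does not hold Pck2, none was called by its brightest probe set, with 23 higher means and a median of 0.24. Ube2g2, a ubiquitin-conjugating enzyme of endoplasmic reticulum quality control, rose by 0.67; for Ube2g2 and Pck2 1 of 2 tested probe sets was called. Beside Nid2 stood the 8 fibroblast markers, of which 4 passed the filter and none was called; 2 had a higher and 2 a lower mean, and the median was -0.25. They summed to 2847 to 3251 at 0 h and 3711 to 4488 at 12 h on the A arrays, most of it from Col3a1, with means of 2449 and 3356 (0.45 ± 0.12, adjusted p = 0.109). On the B arrays the sums ran the other way, 363.0, 770.1 and 819.9 at 0 h and 236.7, 358.4 and 350.5 at 12 h. There Dcn, decorin, had -1.27 ± 0.52 (adjusted p = 0.552) and Pdgfra -0.78 ± 0.84 (adjusted p = 0.87). Their part in the Nid2 change was not tested.

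Krtap5-1, a keratin-associated protein, rose from 49.8, 59.5 and 40.3 to 136, 247 and 143 in 1 of 2 probe sets (1.50 ± 0.30, adjusted p = 0.0459); the other had 0.65 (adjusted p = 0.356). By that one, 0 of 3 keratin-associated genes tested were called (median 0.46). The called Krtap5-1 probe set passed the filter, at an intensity of 101, through its later times, since its means at 0 and 4 h were 49.9 and 61.6. The other called rises on the A arrays were Ndrg1, a stress and differentiation gene (1.19, in 1 of 5 tested probe sets), Fibin (1.17), Ramp1, a partner of the receptor for calcitonin gene-related peptide (1.12, with -0.11 and 0.16 in 2 B array probe sets), Rab40b (0.93), Tspan13 (0.87), Itm2a, a membrane protein of myogenic cells (0.84), Gid4, the substrate receptor of a ubiquitin ligase (0.72, in 1 of 5), and 2 probe sets without a gene symbol (1.05 and 0.62). The called Ndrg1 probe set also passed the filter through its later times, since its 0 h mean was 74.1. On the B arrays 4930512H18Rik rose by 1.09.

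The list of the aryl hydrocarbon receptor had the lowest median of all lists. Of 9 genes of this receptor, its partners and targets, 1 was called lower, 7 had a lower mean and the median was -0.52. Cyp1a1, a cytochrome P450 that metabolises aromatic compounds and is induced by the receptor, measured 769, 860.1 and 731 at 0 h and 362, 343 and 174 at 12 h. Here array 3 was the lowest at 12 h, so in this gene it lay farther from 0 h than the others (-1.44 ± 0.22, adjusted p = 0.0239). Without it the change was -1.12 (adjusted p = 0.00918). The path was not monotonic: the mean was 787 at 0 h, 1369 at 4 h, 293 at 12 h, 77.4 at 24 h and 49.7 at 48 h. Tiparp, a target that feeds back on the receptor, was called in 1 of 3 probe sets, 713, 566 and 431 against 346, 303 and 305 (-0.79 ± 0.16, adjusted p = 0.0463); its brighter probe sets had -0.47 and -0.38 (adjusted p = 0.124 and 0.423). Cyp1b1, Ahr itself and the repressor Ahrr had changes of -0.75 ± 0.18, -0.71 ± 0.18 and -0.83 ± 0.24 (adjusted p = 0.0701, 0.102 and 0.149) with no overlap between times.

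The promoter of Cyp1a1 (chr9:57697363-57697612, plus strand, RefSeq, GRCm38.p6) is shown for a match to GCGTG, the core of the receptor's response element, in capitals 54 bases before the start. Only these 5 letters were searched, so the match does not show a full response element or a site that the receptor binds.
Cyp1a1: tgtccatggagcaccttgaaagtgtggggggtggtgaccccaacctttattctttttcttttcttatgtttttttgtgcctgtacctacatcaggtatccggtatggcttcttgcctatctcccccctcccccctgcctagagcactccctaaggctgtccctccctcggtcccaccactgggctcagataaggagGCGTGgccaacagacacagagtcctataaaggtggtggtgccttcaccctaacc
This core was searched on both strands and was in 66.7% of 15 promoters of 13 genes called lower, in 30.2% of promoters of genes called higher and in 28.2% of all. A core of 5 letters thus matches often, and the base content of the promoters was not compared.

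The antioxidant list held 1 fall. Gclm, the modifier subunit of the enzyme that makes glutathione's precursor, stood at 1451, 1146 and 1222 at 0 h and 789, 689 and 740.0 at 12 h (-0.77 ± 0.15, adjusted p = 0.0404). Its B array probe set had -0.87 (adjusted p = 0.2). The catalytic partner Gclc and sulfiredoxin Srxn1 lay outside the threshold, with -0.81 ± 0.17 and -0.71 ± 0.16 (adjusted p = 0.0515 and 0.0582). Over the 19 antioxidant and NRF2 target genes tested, 1 was called lower, 15 had a lower mean and the median was -0.20. Gclm, like Cyp1a1, had its highest mean at 4 h, 1728, and its level at 24 h was 536.

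NF-kB genes were listed after the calls had been seen. Of 19 tested, 2 were called lower, 15 had a lower mean and the median was -0.21. Nfkb2, which encodes the precursor of a subunit of the alternative pathway, had the smallest adjusted p of the comparison. Its intensities were 661, 576 and 568 at 0 h and 248, 252 and 265 at 12 h. All 12 h arrays lay below every 0 h array and below 431, the mean at 4 h (-1.19 ± 0.13, adjusted p = 0.000499). A dimmer Nfkb2 probe set had -0.44 (adjusted p = 0.604). Nfkbia, the inhibitor that NF-kB induces and that holds it in the cytoplasm, was called in 2 of 4 A array probe sets. The brighter of these stood at 5519, 5089 and 5089 and then 3589, 3557 and 3376 (-0.57 ± 0.11, adjusted p = 0.0323), and the other at 985, 1167 and 925 and 561, 507 and 608 (-0.86 ± 0.17, adjusted p = 0.0411). Of the remaining probe sets of Nfkbia, 1 had -0.85 (adjusted p = 0.0523), 1 had -0.06, and the B array probe set had -0.73 (adjusted p = 0.199). Relb, the partner of the Nfkb2 product, had -0.92 ± 0.22 (adjusted p = 0.0817).

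Promoters of both genes are printed for their NF-kB sites, given in capitals, a motif added after the calls had been seen. The first Nfkb2 window (chr19:46304487-46304736, plus strand) holds 3 matches, of which 2 overlap, and the Nfkbia window (chr12:55492648-55492897, minus strand) holds 1, 29 bases before the start; both are RefSeq, GRCm38.p6.
Nfkb2: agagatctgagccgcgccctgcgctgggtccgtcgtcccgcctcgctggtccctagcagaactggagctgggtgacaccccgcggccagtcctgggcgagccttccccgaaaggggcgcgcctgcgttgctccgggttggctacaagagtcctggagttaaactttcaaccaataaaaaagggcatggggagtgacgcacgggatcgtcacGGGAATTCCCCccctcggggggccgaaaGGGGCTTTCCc
Nfkbia: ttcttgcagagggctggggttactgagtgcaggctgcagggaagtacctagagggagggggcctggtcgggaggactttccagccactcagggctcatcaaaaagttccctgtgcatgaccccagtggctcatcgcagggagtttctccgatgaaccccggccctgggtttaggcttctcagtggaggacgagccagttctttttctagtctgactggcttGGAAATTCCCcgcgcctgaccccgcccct
The site was in 26.7% of 15 promoters of genes called lower, 3 of them promoters of Nfkb2 and 1 of Nfkbia, and in 7.25% of all promoters.

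**Figure D4:**
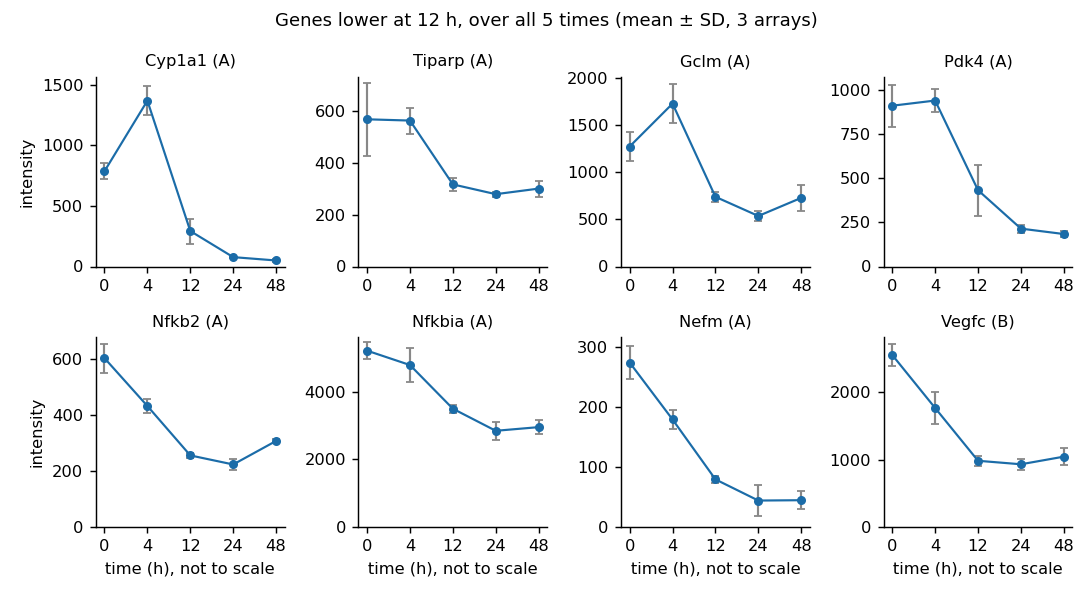
Intensity at 0, 4, 12, 24 and 48 h (axis not to scale) of 8 probe sets called lower at 12 h, with the array type in brackets; points are means of 3 arrays and bars ± SD. Cyp1a1 and Gclm were highest at 4 h, with means of 1369 and 1728, and Nefm, Nfkb2 and Vegfc had lower means at 4 h than at 0 h and lower ones again at 12 h.

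Of 25 immediate early genes tested, 2 were called lower and 14 had a lower mean (median -0.17). Klf10, a zinc finger factor that TGF-beta induces, stood at 1716, 1555 and 1287 at 0 h and 818, 894 and 777 at 12 h (-0.85 ± 0.16, adjusted p = 0.0331). Junb, a subunit of AP-1, stood at 869, 743 and 802 and 460.1, 503 and 510.4 (-0.69 ± 0.14, adjusted p = 0.0459), and its 4 h mean of 464 lay beside a 12 h mean of 491. Egr1 had means of 6994 ± 1421 and 3881 ± 883 (SD, n = 3) and did not pass (-0.85 ± 0.20, adjusted p = 0.0668). Among Id proteins, which bind E proteins and so block MyoD, none passed, and Id1 and Id3 had changes of -0.73 ± 0.17 and -0.71 ± 0.17 (adjusted p = 0.067 and 0.0736), each without overlap between times. Over 19 genes of the Id family and of TGF-beta and BMP signalling 0 were called, 10 had an unadjusted p below 0.05, and the median was -0.30.

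Vegfc, the ligand that drives growth of lymphatic vessels, was called on both array types. On the A arrays it measured 182, 209.6 and 239 at 0 h and 79.9, 63.1 and 102 at 12 h (-1.22 ± 0.24, adjusted p = 0.0373). This A array probe set passed the filter, at an intensity of 101, through its means at 0 and 4 h, 210 and 138. Its means at 12, 24 and 48 h were 81.6, 67.8 and 69.9, below that level. On the B arrays the called probe set measured 2388, 2554 and 2723 and 1017, 900.4 and 1028 (-1.37 ± 0.14, adjusted p = 0.001), and a second one had -1.33 (adjusted p = 0.199). The highest 12 h array was below every 0 h array on both types. Leaving out the B array whose source name is leg muscle, the B change was -1.41 and still passed (adjusted p = 0.0068). None of the other 17 genes of growth factors and receptors tested was called. Dynap, a dynactin-associated membrane protein, was the other B array fall, 3489, 3229 and 4561 against 1568, 1297 and 1701 (-1.29 ± 0.22, adjusted p = 0.0475, and 0.131 without that array).

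Nefm, the medium neurofilament subunit, had the largest fall among the called A array probe sets, from 304, 264 and 251 at 0 h to 74.7, 86.0 and 76.0 at 12 h (-1.61 ± 0.30, adjusted p = 0.0304). The Nefm probe set passed the filter, at an intensity of 101, through its means at 0 and 4 h, 273 and 179. Its means at 12, 24 and 48 h were 78.9, 43.7 and 44.2, below that level. Nefm was the only call among 18 neurofilament, intermediate filament and neuronal cytoskeleton genes (median 0.10). Its partner Nefl measured 325, 261 and 309 and 114, 77.7 and 118 and did not pass (-1.41 ± 0.38, adjusted p = 0.115). A brighter Nefl probe set on the B arrays had 1663, 1272 and 1654 at 0 h and 667, 839 and 756 at 12 h, without overlap, and was not called (adjusted p = 0.115). Of 9 neuron markers on the arrays, 5 were tested and Nefm alone was called. Syn1 and Stmn2, of synapses and growing axons, had changes of -0.07 and -0.01. Tubb3, neuronal tubulin, stood at 149.6, 112 and 155 and 165, 176 and 182, higher at 12 h without overlap (0.31 ± 0.16, adjusted p = 0.446). Nefh, Snap25, Elavl3 and Elavl4 were below the filter. The summed intensity of the list was 1443 to 1542 at 0 h and 1077 to 1283 at 12 h on the A arrays, and 1281 to 1699 and 673 to 845 on the B arrays, where Nefl makes nearly all of it; the part of neuronal cells in the Nefm change was not tested.

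Alcam, an adhesion molecule of the immunoglobulin family that myoblasts express, stood at 341, 281 and 455 at 0 h and 97.2, 104 and 181 at 12 h in the called probe set (-1.41 ± 0.29, adjusted p = 0.0498). The other A array probe set had -1.46 and 3 on the B arrays had -0.78 to -1.15, none of which passed. In the list of myoblast adhesion and fusion, where the brighter Alcam probe set stands for the gene, 0 of 22 genes were called, 14 had a higher mean and the median was 0.14. Pdk4, the kinase that shuts off pyruvate dehydrogenase in fasting, stood at 812, 875 and 1042 and 405, 302 and 588 (-1.09 ± 0.19, adjusted p = 0.0285); array 3 was the highest at both times, and the mean at 24 h was 214. It was the only call among 19 genes of FOXO and glucocorticoid responses (median -0.08).

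The remaining falls were Rnf19b, a RING-type ubiquitin ligase, Atp1b1, the beta subunit of the sodium pump, Srsf2, a splicing factor, and Denr, a factor of translation re-initiation. Rnf19b measured 690.0, 502 and 618 and 232, 270.4 and 346 (-1.06 ± 0.17, adjusted p = 0.0239), and its other probe set had -1.17 (adjusted p = 0.0736). Atp1b1 was called in 1 of 4 tested probe sets (-0.70), the others had -0.29 to -0.78, and Srsf2 in 1 of 4 (-0.56), of which the brightest had -0.10. Denr changed by -0.53.

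**Figure D5:**
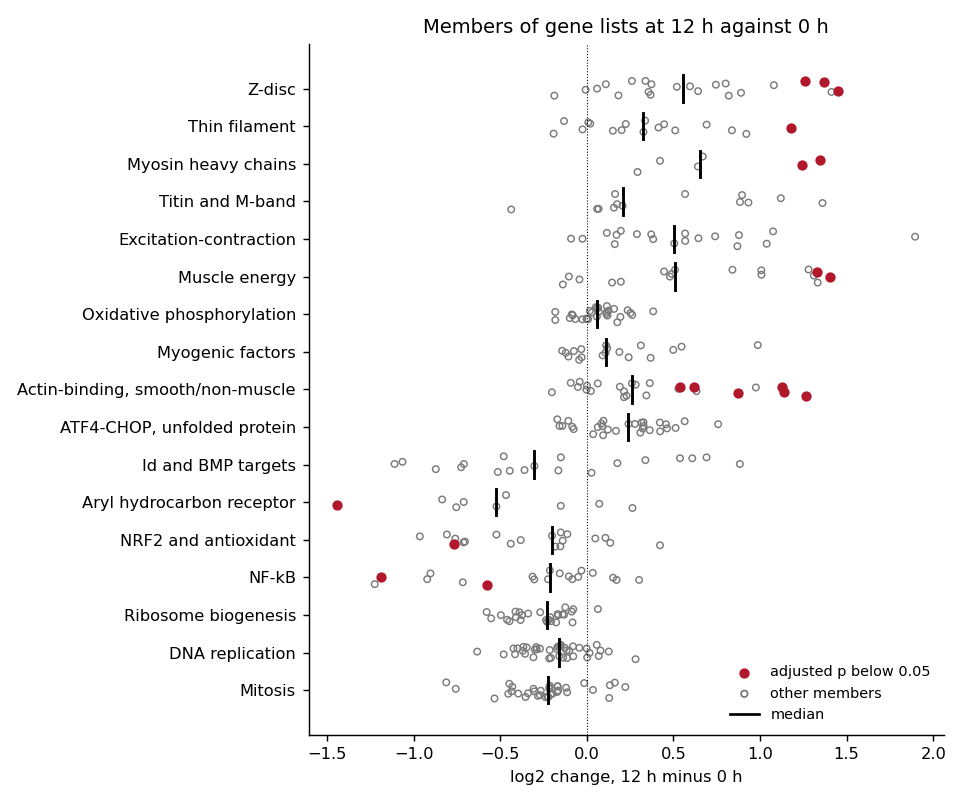
Members of 17 gene lists, 1 probe set per gene, by log2 change at 12 h minus 0 h. Filled red points have a limma adjusted p below 0.05, open points do not and black bars are list medians; Z-disc, myosin, excitation-contraction and muscle energy medians lie between 0.51 and 0.66, and the aryl hydrocarbon receptor median at -0.52.

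Lists of proliferation and growth held no calls with all arrays. For DNA replication 32 of 39 genes and for mitosis 30 of 35 had a lower mean at 12 h, with medians of -0.16 and -0.22. Prim1, a primase, and Cenpf, a centromere protein, came nearest with -0.63 ± 0.21 and -0.81 ± 0.22 (adjusted p = 0.192 and 0.123). For ribosome biogenesis 26 of 27 had a lower mean (median -0.23), with Npm1, nucleophosmin, at -0.50 ± 0.12 and Ncl, nucleolin, at -0.55 ± 0.14 (adjusted p = 0.0668 and 0.0917). Without the 12 h arrays numbered 3 the medians of DNA replication, mitosis and ribosome biogenesis were -0.33, -0.42 and -0.28, and 2, 3 and 3 genes were called lower. Without the 0 h arrays numbered 3 the medians were -0.05, -0.13 and -0.17, with no calls. Over all genes 53.7% had a higher mean. The cyclin D and cell cycle inhibitor list (21 genes), p53 targets (16), the proteasome (28), sterol synthesis (25), hypoxia and glycolysis (22), heat shock (17), feedback inhibitors of ERK (17), matrix proteases (17), cytokines (7) and regulators of G-protein signalling (10) also had 0 calls, with medians from -0.10 to 0.18. Their members with the largest statistics were Cdk2 (0.27), Zmat3 (-0.55), Psme1 (0.43), Dhcr7 (0.42), Ndrg1 (0.78), Hspb2 (1.14), Lrig1 (0.80), Adamts5 (1.05), Ptx3 (0.85) and Rgs17 (-0.95).

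Few genes allowed a second look on the other array type. Of 46 genes called on the A arrays 6 had a tested probe set on the B arrays. For 5 of them every such probe set had the same sign, the exception was Ramp1, and Vegfc alone was also called there. Of 9 genes called on the B arrays, 2 were tested on the A arrays, Vegfc and Igfbp3, both with the same sign. For comparison, of 100 probe sets present on both array types 74 had the same sign on both, and 0 were called on either. So few genes do not set the called ones apart from that share.

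The position of 12 h within the time course was tested directly. From 4 to 12 h, 40 A array probe sets were called (0.295%), 12 higher (0.0884%) and 28 lower (0.206%), and on the B arrays 1 (0.0074%), Igfbp3. From 12 to 24 h, 12 were called on the A arrays (0.0884%), 3 higher (0.0221%) and 9 lower (0.0663%), and 0 on the B arrays, where limma gave 566 at an unadjusted p below 0.05. These comparisons share the 12 h arrays with the comparison above. From 4 to 12 h the A count was 5, 13 and 11 without 4 h arrays 1, 2 and 3, and 9, 6 and 173 without 12 h arrays 1, 2 and 3. The B count was 0 without 4 h array 1 or 3 or any 12 h array, 2 without 0 h array 1 and 3 without 48 h array 2. From 12 to 24 h the A count was 1 without 12 h array 1, 5, 5 and 6 without 24 h arrays 1, 2 and 3, and 21 without 48 h array 3, and the B count was 1 without 24 h array 2 or 3 or 48 h array 1. Actn2 and Myh7 were higher at 12 h than at 4 h by 1.24 and 1.13. Actn2 had means of 993, 2435, 3619 and 3308 at 4, 12, 24 and 48 h, and Myh7 of 254, 581, 829 and 982. Cyp1a1 was lower at 12 h than at 4 h and lower at 24 h than at 12 h.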

How the data were processed

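Intensity values, linear and 1 per probe set, were used as deposited by the authors for 15 A and 15 B arrays; the protocol was Affymetrix's standard one, per the labels, and the summary software is not given in the sources used here. The trimmed mean of the values, with 2% left out at each end, was 500.1 or 500.2 on the arrays compared. Each array type was analysed apart. Probe sets with a mean over its 15 arrays under the 40th percentile (intensity 101 on the A, 199.6 on the B arrays) were left out, and log2(intensity + 16) was fitted with limma 3.58.1 (R 4.3.3) over all 5 times, with an intensity trend, Benjamini-Hochberg adjustment and a threshold of 0.05. The number of arrays, 3 per group, limits the precision. Gene symbols came from the platform annotation, updated where a RefSeq table matched: 20393 A and 14674 B probe sets had 1 symbol, 691 and 245 several, and 1606 and 7656 none, and names were taken only from the first kind. The procedure was also run on simulated data. These had independent noise per probe set and no array that departed from its group as a whole, so they do not show how such an array acts on the calls. Tables and plots used python 3.11.15, pandas 2.3.3, numpy 2.4.6 and matplotlib 3.10.9.

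The members and lists were chosen with earlier results of these data known. Named genes were the 12 largest rises and 10 largest falls called on the A arrays, the 10 largest changes on the B arrays, list members past the threshold (otherwise the 1 or 2 with the largest statistic), and the other calls by symbol. Members named beside a called one without passing, Myog and Myh1 were chosen after their values were seen, as were 3 lists (NF-kB, actin-binding proteins, TEAD cofactors) and the NF-kB motif. Alternatives changed the scaling, the added constant, the filter, the trend, the times fitted, the block and single arrays.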

Additional observations from a re-analysis of the deposited data

Results flagged for a closer look

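Some genes called at 12 h against 0 h also differed between 4 and 12 h by limma's adjusted p below 0.05, a test of the time steps that shares the 12 h arrays. Among the falls, Cyp1a1 differed by -2.23 on the log2 scale from 4 to 12 h and by -1.66 from 12 to 24 h, the only one of the called probe sets to pass in both steps. From 4 to 12 h Gclm differed by -1.20, Pdk4 by -1.14, Tiparp by -0.80, Nfkb2 by -0.72 and Atp1b1 by -0.60.

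Among the rises, from 4 to 12 h Actn2 differed by 1.24, Pdlim2 by 1.14, Myh7 by 1.13, Notch3 by 0.84, Cnn2 by 0.68 and Ube2g2 by 0.63 on the A arrays, and Igfbp3 by 1.18 on the B arrays. The Igfbp3 result did not pass without 4 h array 1 or 3 or without any one of the 12 h arrays. The A array results of this step, falls and rises, also depended on single arrays. Of 40 calls in all, the count became 5, 13 and 11 without 4 h arrays 1, 2 and 3. It became 9, 6 and 173 without 12 h arrays 1, 2 and 3.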

How the results depend on the processing

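From 0 to 12 h, 50 A and 10 B array probe sets were called. Median scaling left 4 and 5, no filter on low values 6 and 4, no intensity trend 5 and 1, and a fit of only the times compared 0 and 1; with a filter at the 60th percentile 16 passed on the B arrays. Leaving out 1 array gave 1 to 276 and 1 to 34. From 4 to 12 h (40 and 1), no filter gave 20 on the A arrays, no trend 22 and 0, only the times compared 7 and 5, and the 60th percentile 7 on the B arrays; leaving out 1 array gave 5 to 173 and 0 to 3. From 12 to 24 h (12 and 0), no filter gave 5, no trend 7 and only the times compared 4 on the A arrays; leaving out 1 array gave 1 to 21 and 0 to 1. A fit of only the times compared has fewer arrays to estimate the spread; the cause of the other differences was not tested. Median scaling changed the share of higher calls on the A arrays from 68% to 25%.

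Replicate numbers are shared between times, but same-numbered arrays did not all deviate together: correlations across probe sets of their deviations at 0 and 12 h were 0.093, 0.33 and 0.421 for A arrays and 0.024, -0.008 and 0.039 for B arrays, and on the A arrays each correlated best with its own number, a hint from the data and not the design. With a replicate block 34 A and 7 B array probe sets passed from 0 to 12 h, 37 and 1 from 4 to 12 h, and 10 and 0 from 12 to 24 h.

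With 3 arrays per group the median SE was 0.179 for A arrays and 0.267 for B arrays (log2 scale), so small changes were not detectable. Dim probe sets carry the added constant of 16, which lowers their change.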
